A study of Mus musculus with 30 samples.

Results

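Ly6c2 encodes a surface antigen of the Ly6 family, and it was described here in the mouse colon together with 4 other Ly6 genes, Ly6c1, Ly6a, Ly6e and Ly6g. The 5 genes were matched by name among the 46078 genes of the count table and were measured by RNA-seq in 30 libraries, 1 for each of 30 mice. Ly6c2 had been selected on its values in these data, in HFD against CD females, in HFD females against HFD males and in the difference between those sexes in their response to diet. Its values in these 3 contrasts are therefore given as a description, without a test, and the tests concern the other comparisons, the other 4 genes and the genes around them. The other comparisons share animals with these contrasts, so tests of Ly6c2 between groups are not independent of its selection.

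Ly6 proteins are small antigens held on the outer face of the cell membrane by a lipid anchor. In mice, Ly6c1 and Ly6c2 encode the Ly6C antigens, which are used to sort inflammatory from patrolling monocytes and which are also carried by plasma cells, by some T cells and by endothelium. Ly6a encodes Sca-1, an antigen of stem cells, endothelium and activated lymphocytes that responds to interferon, Ly6e is widely expressed and is induced by interferon, and Ly6g is the antigen by which neutrophils are commonly recognised.

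All mice were C57BL/6J, 5 to 6 weeks old when obtained, and the females kept their ovaries. There were 5 groups of 6 animals. Females and males were kept on a control diet (CD) or on a high-fat diet (HFD), and a further group of males on HFD received estradiol (E2). Both were fed for 13 weeks, with 9 intraperitoneal injections in the last 3 weeks, of E2 at 0.5 mg/kg in the treated males and of vehicle in the other 4 groups. Each library was made from a piece of whole colon, so fewer cells of a type and less RNA per cell cannot be told apart. No group of E2-treated females was analysed here, and the estrous cycle of the females was not monitored in the study.

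The counts on genes ranged from 8667177 to 17243712 per library. The markers of colon epithelium were abundant in every library, with summed levels of 5287 to 8084 TPM (transcript abundance corrected for the length of each gene and the size of each library). Markers of squamous epithelium stood apart in 6 libraries, 4 of HFD females and 2 of HFD males, and their summed level had a median of 942 TPM in HFD females against 3.75 to 6.32 TPM in the other groups. Values without these 6 libraries are given beside the results on HFD that they touch most.

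The 5 genes lie side by side on chromosome 15 (GRCm38). Ly6e is at chr15:74955051-74959905 on the forward strand, Ly6a at chr15:74994877-74998031 on the reverse strand and Ly6c1 at chr15:75044018-75048830 on the reverse strand. Ly6c2 follows at chr15:75108158-75111970 on the reverse strand, and Ly6g at chr15:75155240-75159126 on the forward strand. Ly6c1 and Ly6c2 are near copies, which bears on every value of Ly6c2. Their coding sequences (GENCODE M21) are both 396 bases long and differ at 9 bases, so that 97.7% of the bases and all but 7 of 131 amino acids are the same. The first 300 bases of each, which hold 7 of the 9 differences, are shown because the reads of these genes can be told apart only where they differ, and capitals mark the differing bases.
Ly6c2: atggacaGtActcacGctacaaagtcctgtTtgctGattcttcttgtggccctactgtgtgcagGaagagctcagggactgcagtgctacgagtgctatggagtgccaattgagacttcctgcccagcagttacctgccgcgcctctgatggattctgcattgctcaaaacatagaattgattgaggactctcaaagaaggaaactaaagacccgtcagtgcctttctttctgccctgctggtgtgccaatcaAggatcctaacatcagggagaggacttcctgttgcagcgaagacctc
Ly6c1: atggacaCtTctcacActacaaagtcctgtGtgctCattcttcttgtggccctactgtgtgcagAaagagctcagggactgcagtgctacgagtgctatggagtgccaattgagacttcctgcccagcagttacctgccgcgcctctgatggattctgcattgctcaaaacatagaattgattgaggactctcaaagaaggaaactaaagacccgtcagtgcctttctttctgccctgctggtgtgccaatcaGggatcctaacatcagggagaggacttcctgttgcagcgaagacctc
The longest identical stretch is 188 bases. The study sequenced pairs of reads of 51 bases, and of the 51-base windows of the Ly6c2 coding sequence, 46.2% occur unchanged in a transcript of Ly6c1. Of the 772 windows of the whole Ly6c2 coding transcript, 247 do. Counted over all transcripts of a gene instead, Ly6c2 shared 13.6% of its windows with Ly6c1, and Ly6c1 shared 21.1% with Ly6c2. On that basis Ly6a shared 14.7% of its windows with Ly6c1, Ly6g shared 0.224% with any other gene, and Ly6e shared none of its 4192 windows. How reads that fit both genes were counted was not given in the sources used here.

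Ly6c2 was detected in all 30 libraries at low counts. CD females had 2 to 10 reads, with a median of 6, and CD males 1 to 7 reads, with a median of 3.5. HFD females had 43, 56, 46, 63, 20 and 50 reads. HFD males had 3 to 13 reads, with a median of 5.5, and HFD males given E2 had 6 to 55, with a median of 16. Every HFD female lay above every animal of the other vehicle groups, and the E2-treated males overlapped with both HFD females and HFD males. Summed over 6 animals, the counts were 36 in CD females (exact Poisson 95% interval 25.2 to 49.8) and 22 in CD males (13.8 to 33.3), intervals that cover counting error only.

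In TPM, Ly6c2 had a median of 1.89 (range 1.37 to 2.38) in CD females and of 3.31 (2.66 to 3.73) in CD males. HFD females had a median of 9.49 (4.13 to 12.9) and HFD males of 3.62 (2.53 to 4.15), and E2-treated HFD males had a median of 5.98 (2.89 to 7.89). The order of the groups in TPM was thus HFD females, HFD males given E2, HFD males, CD males and CD females, and neighbours in this order overlapped except for CD males and CD females. The 2 measures disagreed on the CD groups, since CD males were above CD females in TPM without overlap and below them by median count.

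**Figure D1:**
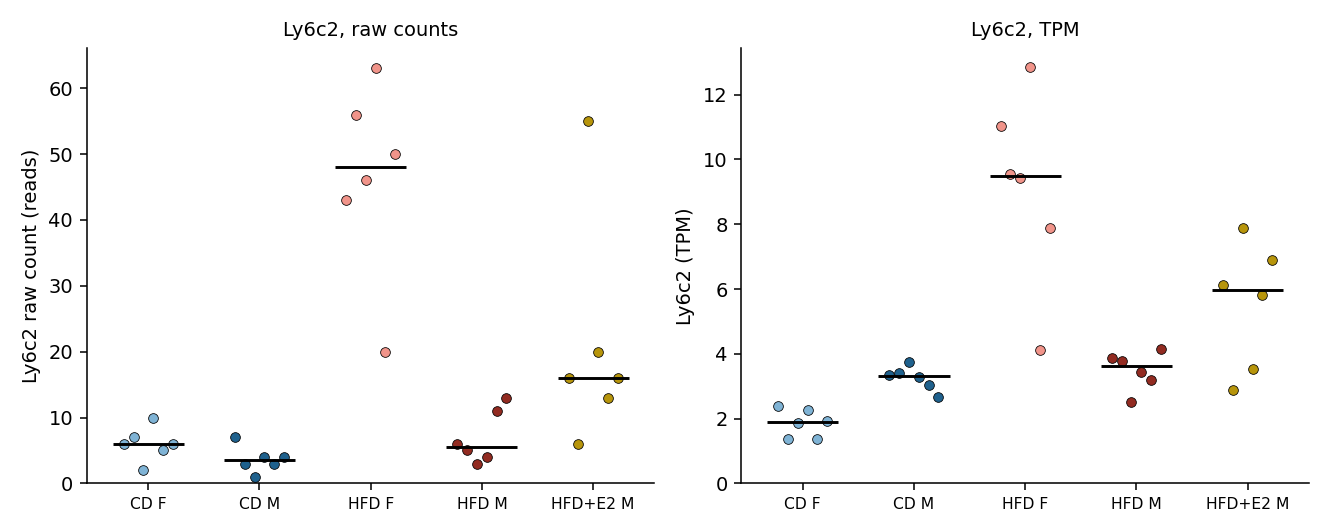
Raw counts (left) and TPM (right) of Ly6c2 by group, with 1 point for each of the 6 animals of a group and a bar at the median. The 6 HFD females, with 20 to 63 reads, lie above all other vehicle-treated animals by counts and touch the range of HFD males in TPM (4.13 against 4.15), and CD males lie below CD females by median count and above them in TPM.

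The disagreement was examined through the share of Ly6c2 in the reads assigned to Ly6c1 and Ly6c2 together. This share had a median of 34.3% in HFD females (25.4% to 39.1%), against 7.92% in CD females, 2.53% in CD males, 3.798% in HFD males and 10.7% in E2-treated HFD males (2.94% to 23.9%). In TPM the medians were closer, at 35.8% in HFD females and 13.9% to 23.1% in the other groups. The TPM of Ly6c2 divided by its CPM (counts scaled to library size only) was 2.21 in HFD females, 3.09 in CD females and 10.6 in CD males by median, while for Ly6c1 this ratio stayed between 1.14 and 2.38 in all libraries. The median of the Ly6c2 ratio was 8.59 in HFD males and 4.16 in E2-treated males. CD females and HFD males thus differed in this ratio at similar counts, with medians of 6 and 5.5 reads. The part of reads shared with Ly6c1 in these differences was not tested.

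**Figure D2:**
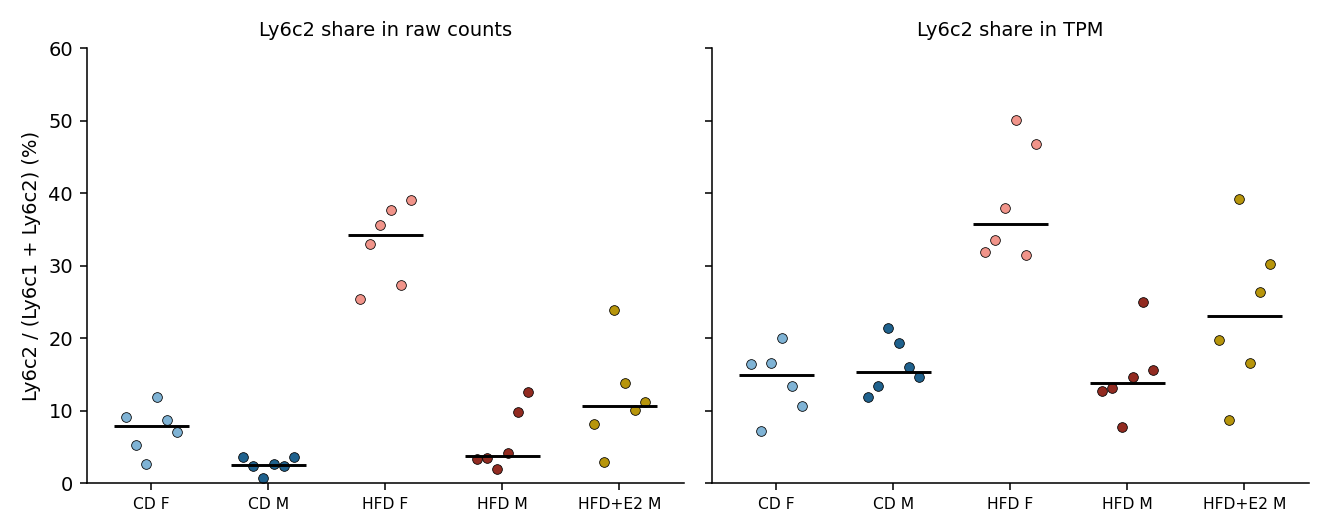
Share of Ly6c2 in the sum of Ly6c1 and Ly6c2 (%), from raw counts (left) and from TPM (right), with 1 point per animal and a bar at the median. HFD females stand at 25.4% to 39.1% by counts, above all animals of the other groups, and the other groups are higher in TPM than by counts.

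When HFD was compared with CD in females, the other 4 members stayed within 0.18 of 0 on the log2 scale and did not pass a threshold. The fold change of Ly6c2 was 2.77 on the log2 scale (SE 0.32), a value from the contrast it was chosen by. Across all genes, 0.0199% had an adjusted p under 0.05 (edgeR, Benjamini-Hochberg), and 3.67% passed the threshold of the study, which asks for an absolute log2 fold change above 0.4 and an unadjusted p under 0.05. Of the other 4 members, 0 passed either rule, 0 had an unadjusted p under 0.05, and DESeq2 called 0 of them. Their log2 fold changes were 0.14 for Ly6c1 (SE 0.19), 0.11 for Ly6a (SE 0.25), 0.14 for Ly6e (SE 0.12) and 0.18 for Ly6g (SE 0.23). When the reads of Ly6c1 and Ly6c2 were summed to 1 feature, the fold change fell to 0.62 (SE 0.18). Without the 6 libraries with squamous markers, Ly6c2 stood at 2.97 (SE 0.38), and the 2 HFD females that remained had 56 and 50 reads.

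In males, the difference of Ly6c2 between HFD and CD depended on the fit. Ly6c2 was too low for the filter on low counts, and by log2 CPM HFD males stood at −0.43 ± 0.67 and CD males at −1.12 ± 0.50 (SD, n = 6), a difference of 0.69 (exact two-sided permutation p = 0.0714). Leaving out CD male 1 or HFD male 3 took this p to 0.0411 and 0.0216, and without a filter edgeR gave a log2 fold change of 1.03 (SE 0.50) with an unadjusted p of 0.0478 and an adjusted p of 0.732. With all 30 libraries in 1 edgeR fit it was 1.03 (SE 0.46) with an unadjusted p of 0.0331 and an adjusted p of 0.719, so both edgeR fits passed the threshold of the study and not the adjusted one. DESeq2, the tool used in the study, gave 1.07 (SE 0.58) with an unadjusted p of 0.0642, which did not pass. On log2 TPM the difference was 0.10 (SE 0.16, pseudocount 0.1). Of the other 4 members, 0 passed either rule in edgeR, 0 had an unadjusted p under 0.05, and DESeq2 called 0. Over all genes, 0% passed the adjusted threshold and 2.9% that of the study. The response of Ly6c2 to diet differed between the sexes by 1.73 on the log2 scale (SE 0.59), again a contrast that served to choose it, in which 5.18% of all genes passed the study's threshold and 0 of the other 4 members did.

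The sexes differed in Ly6c1 on CD, with lower levels in females. It had 52 to 126 reads in females, with a median of 72.5, and 104 to 189 in males, with a median of 127.5. In TPM it had a median of 10.8 (8.82 to 17.7) in CD females and of 15.6 (13.7 to 24.6) in CD males. Ly6c1 was lower in females by both measures, and 1 of the 6 CD females reached into the range of the males by counts. It fell by 0.67 on the log2 scale relative to males (SE 0.16; edgeR adjusted p = 0.0313; exact permutation p = 0.00649), in a comparison in which 2.92% of all genes passed the adjusted threshold and 9.15% the study's. The adjusted p rose above 0.05 when any 1 of 7 of the 12 libraries was left out, to between 0.0537 and 0.0711, and it was 0.0589 with all 30 libraries in 1 fit. Beside Ly6c1, all 8 markers of smooth muscle and 6 of 14 markers of blood endothelium, among them Flt1 and Plvap, were lower in CD females at the study's threshold, and their part in the difference was not tested.

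On HFD, Ly6c1 had 53 to 126 reads in females (median 93.5) and 90 to 169 in males (median 120). The fold change was −0.51 on the log2 scale (SE 0.19), which passed the study's threshold together with 3.09% of all genes, while the adjusted p of edgeR was 0.872 and 0.0988% of all genes passed that rule. Ly6c2 was higher in HFD females by 2.60 (SE 0.35), and by 2.58 (SE 0.49) without the libraries with squamous markers, a contrast it was chosen by. With the reads of both genes summed, the difference between the sexes on HFD was −0.01 (SE 0.18), so that the total of Ly6c reads was near equal while its division between the 2 genes differed. On CD, the share of Ly6c2 in these reads was also higher in females, with 7.47% ± 3.21 against 2.58% ± 1.06 (SD, n = 6; exact permutation p = 0.00649, and 0.0195 adjusted over the 3 comparisons made). The share also rises where Ly6c1 is lower, as it was in CD females, so it is no separate measure of Ly6c2. By TPM this share was 14.1% ± 4.6 in CD females and 16.1% ± 3.6 in CD males (exact permutation p = 0.407). The level of Ly6c2 itself on CD, at −0.52 ± 0.58 log2 CPM in females and −1.12 ± 0.50 in males, did not pass the exact permutation test (p = 0.0844).

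Ly6g, Ly6a and Ly6e did not pass either threshold between the sexes in edgeR. In DESeq2, Ly6g on CD had an unadjusted p of 0.0346 and an adjusted p of 0.285 at a log2 fold change of −0.52 (SE 0.25), which passes the threshold of the study. The largest of their differences was in Ly6g, at −0.53 on CD (SE 0.26; edgeR adjusted p = 0.361) and −0.48 on HFD (SE 0.28; edgeR adjusted p = 0.872). Ly6g had a median of 50.2 TPM in CD females and of 64.2 TPM in CD males, and the groups overlapped. Ly6e differed by 0.16 on CD (SE 0.14) and by 0.23 on HFD (SE 0.12), and Ly6a by −0.26 (SE 0.28) and −0.11 (SE 0.27).

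**Figure D3:**
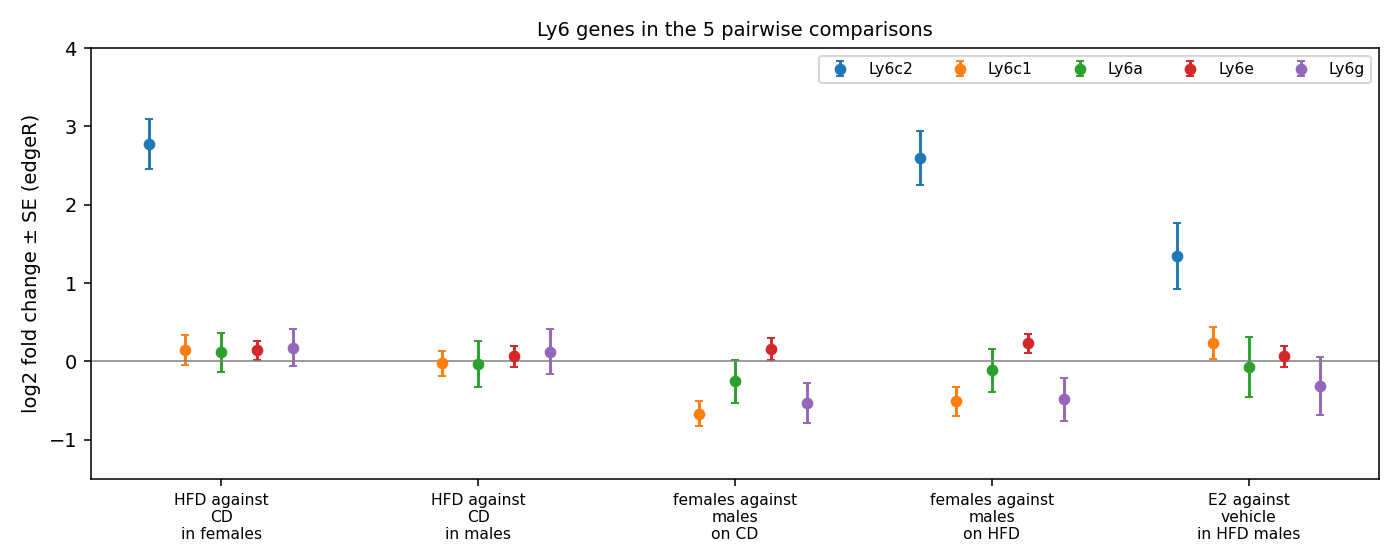
Log2 fold changes of the 5 members in the pairwise comparisons (edgeR, first group named against the second; bars show ± 1 SE). Ly6c2 stands at 2.77 and 2.60 in the contrasts by which it was chosen and at 1.35 for E2, it is not drawn in the 2 comparisons where its counts were too low for the fit, and the other members lie between −0.67 and 0.23.

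E2 was compared with vehicle in HFD males, a contrast that did not itself serve to choose Ly6c2. Its vehicle males were part of contrasts that did, so its tests of Ly6c2 are not independent of that choice. The 6 E2-treated males had 16, 6, 55, 20, 13 and 16 reads of Ly6c2, and the 6 vehicle males 3 to 13. Animal 3 of the treated group was the highest, 4 of the 6 treated animals exceeded all vehicle males by raw count, and 3 did so by log2 CPM. The mean was 0.69 ± 0.69 log2 CPM under E2 and −0.43 ± 0.67 under vehicle (SD, n = 6), a difference of 1.12 (exact permutation p = 0.0216). In edgeR the log2 fold change was 1.35 (SE 0.42), with an unadjusted p of 0.00514 and an adjusted p of 0.454. It passed the study's threshold, as 5.87% of all genes did, and not the adjusted one, which 0.00666% passed. Without animal 3 of the treated group the log2 fold change was 1.002 (SE 0.41), without the 2 vehicle males with squamous markers it was 1.14 (SE 0.49), and with the reads of Ly6c1 and Ly6c2 summed it was 0.32 (SE 0.18). On log2 TPM it was 0.58 (SE 0.25) with a pseudocount of 0.1 and 0.49 (SE 0.20) with 1. The share of Ly6c2 in the Ly6c reads was 11.7% ± 7.0 under E2 and 5.90% ± 4.28 under vehicle (exact permutation p = 0.113). Of the other 4 members, 0 passed either rule in edgeR, 0 had an unadjusted p under 0.05, DESeq2 called 0, and the widest difference was −0.31 for Ly6g (SE 0.37).

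The other 4 members were more abundant than Ly6c2 and overlapped between all groups. Ly6c1 had a median of 15.9 TPM over the 30 libraries (8.82 to 30.05), and Ly6a of 49.6 TPM (15.98 to 156). Ly6e had a median of 60.7 TPM (21.3 to 112) and Ly6g of 63.2 TPM (37.3 to 186). The highest values of Ly6a and Ly6g came from a few males. CD male 1 had 156 and 180 TPM of these genes, HFD male 2 had 108 and 164 TPM, HFD male 1 had 97.8 and 146 TPM, and E2-treated male 1 had 87.6 and 186 TPM.

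**Figure D4:**
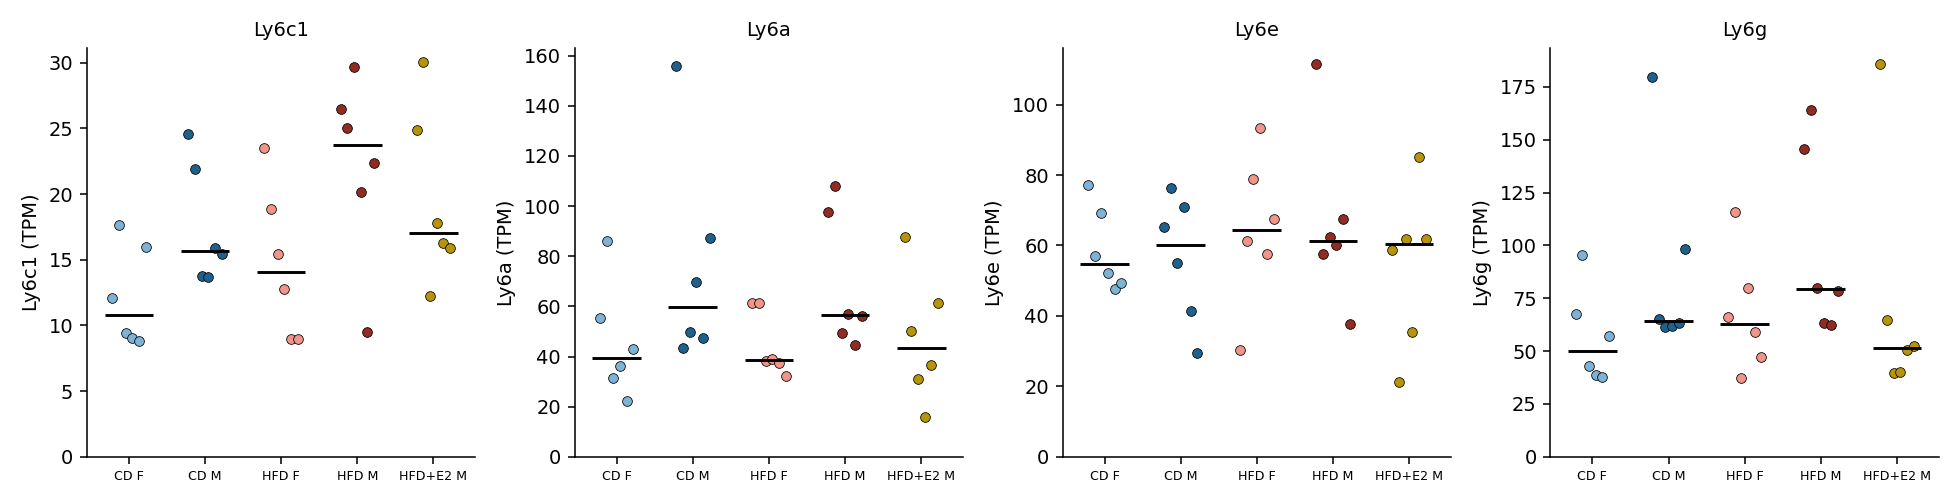
TPM of Ly6c1, Ly6a, Ly6e and Ly6g by group, with 1 point per animal, a bar at the median and a separate axis for each gene. The groups overlap in all 4 genes, and the highest values of Ly6a and Ly6g, 156 and 186 TPM, belong to single males.

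Ly6a and Ly6g rose and fell together between animals of the same group. After subtraction of the group means, their log2 CPM values correlated with r = 0.94 and rho = 0.89 over the 30 libraries (permutation p within groups = 1e-05, the smallest that 100000 permutations can give; adjusted p = 0.00066 over 66 relations). The correlation lay between 0.83 and 0.98 within each of the 5 groups, and it was 0.90 without the 2 libraries farthest from the median. Both genes were lower where smooth muscle markers were higher, with r = −0.69 for Ly6a and −0.64 for Ly6g (adjusted permutation p = 0.00528 and 0.00946, over 66 relations; rho = −0.67 and −0.64, adjusted p = 0.00726 and 0.00836). Without the 2 farthest libraries these were −0.58 and −0.55. Ly6c1 went with Ly6g (r = 0.60, adjusted permutation p = 0.0272; rho = 0.64, adjusted p = 0.0135; r = 0.60 without the 2 farthest).

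Ly6g was abundant where other neutrophil markers were near 0. Of 13 such markers, 10 had a median of 0 TPM, among them S100a8 and S100a9 (the subunits of calprotectin), Elane and Camp, while Ly6g was at 37.3 TPM or more in every library. The summed level of the 13 markers was at most 5.62 TPM in CD and E2-treated animals, and it reached 311 TPM in HFD females and 110 TPM in HFD males, mainly through Ltf (up to 261 TPM), the gene of lactoferrin. The high values lay in the libraries with squamous markers. The mean log2 CPM of the list was 0.56 to 2.66 in the 4 such HFD females and −1.34 and −0.65 in the others. In HFD males it was 2.06 and 0.59 in the 2 such libraries and −1.87 to −1.23 in the others. Within groups, Ly6g correlated with the neutrophil list at r = −0.07 (permutation p = 0.699) and with the markers of surface colonocytes, the absorptive cells at the crypt mouth, at r = 0.49 (permutation p = 0.00613, adjusted p = 0.0674; rho = 0.49, adjusted p = 0.0753; r = 0.42 without the 2 farthest libraries).

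The neighbourhood of Ly6c2 was then examined for a shared change. Of the 44 genes that start within 500000 bases of it, 31 had a median count of 0. The Ly6 genes Ly6i, Ly6f, Ly6h and Ly6k were among them, with at most 5 reads in any library. Ly6d, a marker of squamous epithelium and of lymphoid progenitors, passed the study's threshold in HFD against CD females (log2 fold change 2.82, SE 0.67) and in females against males on CD (1.49, SE 0.45) and on HFD (2.37, SE 0.92). Its edgeR adjusted p-values were 0.412, 0.0907 and 0.872. Without the libraries with squamous markers it stood at 0.52 (SE 0.55) in HFD against CD females and at 1.22 (SE 0.95) between the sexes on HFD, and it no longer passed. Ly6d ranged from 2.35 to 58.1 TPM in HFD females, in which the squamous markers also varied, and it had a median of 2.47 TPM in HFD males and of 2.51 TPM in E2-treated males. The uncharacterised neighbours 2010109I03Rik and 9030619P08Rik passed the study's threshold in CD females against CD males, at −1.49 (SE 0.60) and 0.75 (SE 0.25). Over all genes, 3.67% passed it in HFD against CD females, 9.15% between the sexes on CD and 3.09% on HFD. Most of the 44 neighbours were too low to be tested, and 8 had a median count of 10 or more.

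To see which genes followed Ly6c2, the genes were first ranked by their correlation with Ly6c2 in log2 CPM over the 30 libraries, as a description. The 5 genes most like it among 16059 were Igkc (r = 0.87), Ighv1-55 (0.83), Igha (0.83), Jchain (0.81) and Ighg2b (0.76). Igkc is the constant part of the kappa light chain, Igha and Ighg2b the constant parts of IgA and IgG2b, Ighv1-55 a heavy chain variable segment, and Jchain joins secreted IgA and IgM. All 5 are products of plasma cells. Irf4, a transcription factor of plasma cells, ranked 7 (r = 0.72), while Prdm1, the master regulator of plasma cell fate, ranked 1478 (0.27) and had an r of −0.32 after subtraction of group means. The monocyte chemokine receptor gene Ccr2 ranked 760 (0.35) and Csf1r, the receptor of the monocyte growth factor, ranked 5861 (0.07). Ly6c1 ranked 13211 (−0.18), Ly6g 12819 (−0.16), Ly6a 8317 (−0.01) and Ly6e 708 (0.36). The points share the group differences by which Ly6c2 was chosen, so the ranks are no test.

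Igkc had 349 to 1022 TPM in HFD females, with a median of 567, and medians of 129 in CD females, 48.3 in CD males, 113 in HFD males and 149 in E2-treated males. HFD females lay above every other animal for Igkc, whose highest value elsewhere was 335 TPM. Jchain had 62.4 to 184 TPM in HFD females and at most 54.8 TPM in any other animal. The summed level of the 7 plasma cell markers was 103 to 234 TPM in HFD females and at most 98.0 TPM in the other groups, again without overlap. Igkc and Jchain are among the genes most like Ly6c2, which was chosen by contrasts with HFD females, and Jchain is in this sum. The separation is therefore a description and no test, and the share of all genes that separate likewise was not counted. Of the 4 plasma cell markers tested in HFD against CD females, 3 rose at the study's threshold, Jchain by 2.32 (SE 0.52), Prdm1 by 1.36 (SE 0.36) and Irf4 by 0.66 (SE 0.28), and the median was 1.01 against 0.00123 over all genes. None of the 3 passed the adjusted threshold (edgeR adjusted p = 0.412, 0.421 and 0.790). In HFD females against HFD males, the same 3 of 4 passed the study's threshold, with a median of 0.74. Of all genes, 3.67% passed it in HFD against CD females and 3.09% in HFD females against HFD males. Without the libraries with squamous markers, 2 of 5 and 1 of 5 passed, Irf4 and Jchain in the first case and Jchain in the second, against 2.36% and 2.14% of all genes. Under E2, 0 of the 4 passed, by adjusted or unadjusted p with edgeR, with a median of 0.16, and 5.87% of all genes passed the study's threshold.

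Of 13 monocyte markers tested in HFD against CD females, 1 rose at the study's threshold, the integrin gene Itgam by 0.49 (SE 0.15), and the median was 0.08. Of all genes, 3.67% passed in either direction. Ccr2 stood at 0.28 (SE 0.18) and Csf1r at −0.01 (SE 0.14). In HFD females against HFD males, 1 of 13 passed, Cd14, with a median of 0.20, against 3.09% of all genes. Under E2, 1 of 12 passed, again Itgam, at 0.48 (SE 0.20), with a median of 0.23, against 5.87% of all genes. Without the libraries with squamous markers, 0 of 13 monocyte markers passed in HFD against CD females and 0 of 13 under E2, against 2.36% and 3.45% of all genes. In HFD females against HFD males 2 of 13 were then higher, Lyz2 and Ms4a6c, against 2.14% of all genes. The summed level of the monocyte markers had medians of 121 to 139 TPM in the 5 groups, which overlapped, and Chil3, a gene of Ly6C-high monocytes, had a median of 0 TPM. Adgre1, which encodes the macrophage antigen F4/80, stood at −0.07 in HFD against CD females (SE 0.21) and at −0.16 under E2 (SE 0.22).

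Of 27 interferon response genes tested in HFD against CD females, 11 passed the study's threshold, all of them higher, against 3.67% of all genes in either direction, among them Oasl2 by 0.99 (SE 0.33), Ifit1 by 0.94 (SE 0.22) and Irf7 by 0.54 (SE 0.20), and the median of the list was 0.36. Without the libraries with squamous markers 7 of 27 passed, against 2.36% of all genes, and 0 of 27 passed the adjusted threshold of edgeR with all libraries. Under E2, Oas2, Oasl2, Zbp1, Oasl1 and Irf7 passed the study's threshold, all higher, against 5.87% of all genes. Between the sexes on HFD, Oas2, Oasl2, Rtp4 and Dhx58 were higher in females and Ifit2 lower, against 3.09%. Without the libraries with squamous markers, 4 of 26 passed under E2 and 1 of 27 between the sexes, against 3.45% and 2.14%. Ly6a and Ly6e, which respond to interferon in many cells, stood at 0.11 and 0.14 in HFD against CD females. Of the blood endothelial markers, 0 of 14 passed in HFD against CD females, with a median of 0.04, and Pecam1 stood at −0.06 (SE 0.13).

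Whether Ly6c2 followed these lists between animals of the same group was tested next, where the group differences play no part. In 19 relations, Ly6c2 did not go with the neighbouring genes, with r = −0.06 for Ly6c1, 0.09 for Ly6a, 0.16 for Ly6e and −0.01 for Ly6g when the groups were combined (permutation p = 0.775, 0.673, 0.442 and 0.954; rho = −0.05, 0.09, 0.27 and −0.00334). The relation with Ly6c1 was uneven, with r of 0.34 to 0.75 in the CD groups and HFD females and of −0.54 and −0.64 in HFD males without and with E2. With the monocyte list it correlated at r = 0.46 (permutation p = 0.0218, adjusted p = 0.0622; rho = 0.46, adjusted p = 0.0593; r = 0.35 without the 2 farthest libraries), and r was between 0.41 and 0.51 in each of the 5 groups. With the interferon list r was −0.00296 (permutation p = 0.988; rho = 0.08).

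Several lists passed the adjusted threshold within groups. The B cell list had r = 0.58 (adjusted permutation p = 0.0169; rho = 0.60, adjusted p = 0.0151; 0.58 without the 2 farthest), but on TPM its r fell to 0.20. The T and NK cell list had r = 0.56 (adjusted permutation p = 0.0169; rho = 0.58, adjusted p = 0.0151; 0.41 without them). The plasmacytoid dendritic cell list followed at r = 0.49 (adjusted permutation p = 0.0472; rho = 0.55, adjusted p = 0.0215; 0.40 without them) and blood endothelium at r = 0.51 (adjusted permutation p = 0.0472; rho = 0.57, adjusted p = 0.0151; 0.46 without them). For T and NK cells r ran from 0.17 in HFD males to 0.94 in E2-treated males, and 0 of the 12 markers had a median above 1 TPM. For endothelium r ran from −0.01 in CD males to 0.84 in HFD males. For the dendritic cell list r was −0.14 in CD males and 0.49 to 0.69 in the other groups. Its genes were uneven, with medians of 531 TPM for Klk1, 42.6 for Tcf4, 0.21 for Ccr9 and 0 for Cox6a2. Whether its score reflects these cells was not tested. The plasma cell list had r = 0.58 with an adjusted permutation p of 0.0169, and its rank correlation missed the threshold (rho = 0.46, adjusted p = 0.0593; r = 0.35 without the 2 farthest). The colon epithelium list passed by rank and not by r (r = 0.40, adjusted permutation p = 0.0947; rho = 0.49, adjusted p = 0.0449; r = 0.25 without the 2 farthest). Smooth muscle passed by neither, at r = −0.44 (adjusted permutation p = 0.0622) and rho = −0.42 (adjusted permutation p = 0.076). In the low groups these relations rest on 1 to 13 reads of Ly6c2 per library, and the differences between the correlations were not tested. The 5 genes most like Ly6c2 within groups were Nrros (r = 0.74), Il21r (0.71), Serpina3g (0.70), Evl (0.68) and Dennd4b (0.68), all low genes with group means of 0.52 to 2.50 TPM, and these ranks are a description.

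**Figure D5:**
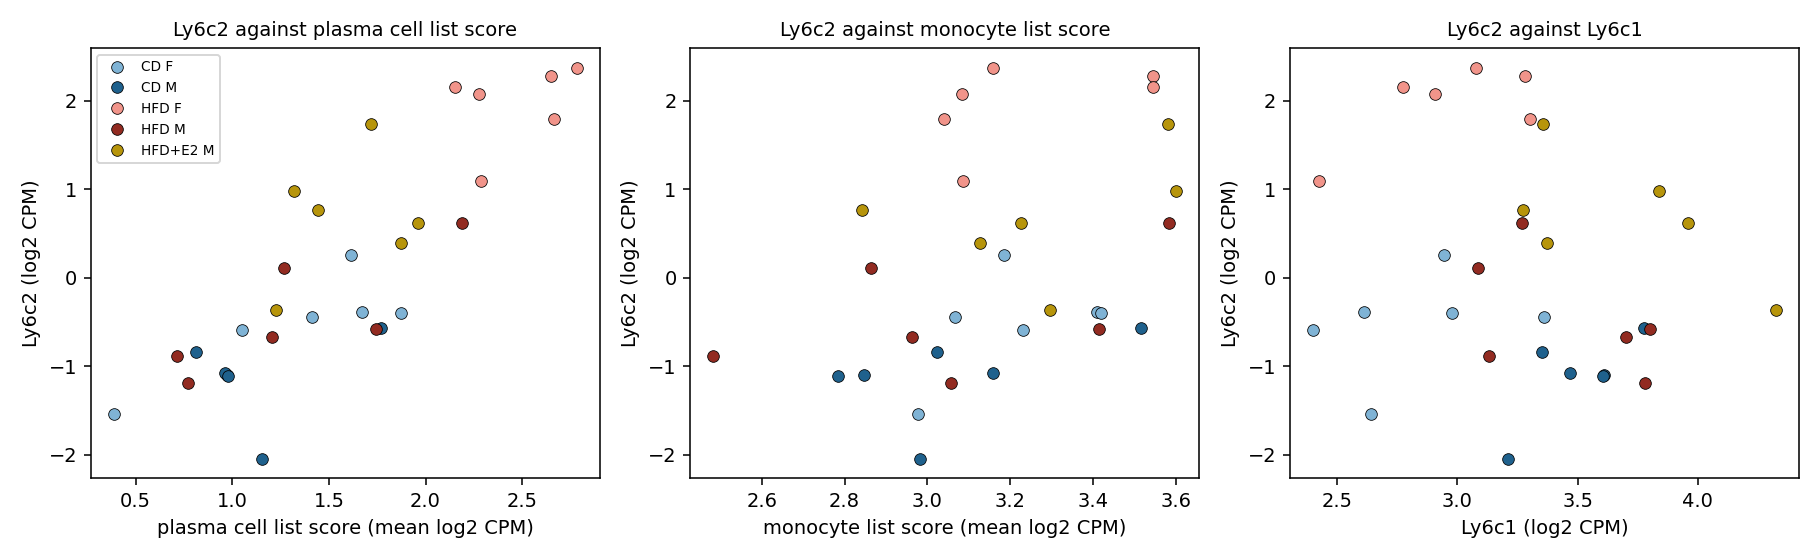
Ly6c2 (log2 CPM) against the score of the plasma cell list (left), the score of the monocyte list (middle) and Ly6c1 (right), where a score is the mean log2 CPM of a list and each point is 1 of 30 animals coloured by group. HFD females are at the top right for plasma cells and are spread over the range of the other groups for monocytes, and with Ly6c1 the within-group r is −0.06 over the 30 animals, with groups of either sign.

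The same question was put to the group differences by adding the score of a list, or the log2 CPM of a neighbour, to the fit. In HFD against CD females, Ly6c2 stood at 2.74 (SE 0.31) with the monocyte score in the fit, at 2.67 (SE 0.31) with Ly6c1 and at 2.74 (SE 0.32) with Ly6a. With the plasma cell score it stood at 1.78 (SE 0.54). In HFD females against HFD males the values were 2.44 (SE 0.33) with the monocyte score, 2.60 (SE 0.42) with Ly6c1, 2.60 (SE 0.35) with Ly6a and 1.502 (SE 0.51) with the plasma cell score. In E2 against vehicle they were 1.09 (SE 0.41), 1.61 (SE 0.39), 1.28 (SE 0.42) and 1.13 (SE 0.40) in the same order, and 1.04 (SE 0.38) with the B cell score. The interferon score gave 2.52 (SE 0.37), 2.60 (SE 0.39) and 1.45 (SE 0.44) in the 3 contrasts. These values are a description in the 2 contrasts by which Ly6c2 was chosen, and the differences between scores were not tested. Since plasma cell genes and Ly6c2 were both higher in HFD females, the list and the group cannot be told apart in these fits.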

How the data were processed

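RNA of whole distal colon was sequenced from 30 mice, with 1 library an animal. The authors trimmed the reads with Trim Galore, mapped them to GRCm38 with STAR and counted them per gene with featureCounts, and these raw counts were deposited. The TPM values were made by the authors with StringTie, 1 table per library. Tool settings for strand and for reads that fit several genes, and the versions, were not given in the sources used here. Counts per library had a median of 11530915.5, and 26.1% to 38.0% of them were mitochondrial.

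Counts were tested with edgeR 4.0.16 (quasi-likelihood, TMM scaling, filterByExpr; R 4.3.3) between pairs of groups, and the interaction over the 4 vehicle groups, with Benjamini-Hochberg adjustment over all genes. Log2 CPM used a prior count of 2. Where Ly6c2 was below the filter, an exact permutation test over 924 splits was used, whose smallest p is 0.00216. Within-group relations used 100000 permutations within groups of values minus group means, and the score of a list averages log2 CPM over those genes that reach a mean CPM of 0.1. On simulated data, edgeR recovered 77% of 100 genes changed by 1 and 100% of 95 changed by 2.8 (log2, HFD against CD females, 15281 genes), with 6 false calls. The changed genes were drawn from all genes past the filter, so this recovery is not that of genes as low as Ly6c2. With that many changed genes the adjusted threshold is also easier to pass than in the data, where 3 genes passed it. DESeq2 1.42.0 and limma 3.58.1 (on log2 TPM) were alternatives.

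The members and lists were chosen with earlier results of these data known. Genes were named by rule: the members, neighbours within 500000 bases that are Ly6 genes or pass the study's threshold, up to 3 genes per list and comparison with set defining genes, and the 5 genes most like Ly6c2 by each correlation. Markers at 0, Prdm1 and other single genes beside these were added after their values were seen. Animals of 1 group were treated as separate replicates.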

Additional observations from a re-analysis of the deposited data

Results flagged for a closer look

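The count of Ly6c2 in CD male 3 was 1, against 3 to 7 in the other 5 CD males. On the log2 CPM scale its gap to the nearest animal was 0.6341 of the range of the group, above the critical value of 0.625 for 6 samples. It was the only 1 of 25 combinations of member and group past its critical value, and chance passes about 1 in 20. A single read sets this value, and its cause was not tested. Without this animal, the difference of HFD from CD males in Ly6c2 was 0.51 log2 CPM.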

How the results depend on the processing

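Ly6c2 kept its direction in HFD against CD females under 18 alternatives and in E2 against vehicle under 18. In the first, a contrast it was chosen by and given without a test, it was 0.62 with Ly6c1 and Ly6c2 summed, 2.52 with the interferon score and 1.78 with the plasma cell score. Between the sexes on HFD, likewise, it was 1.30 and 1.12 on log2 TPM (pseudocounts 0.1 and 1), 1.502 with the plasma cell score, 2.58 without the libraries with squamous markers and −0.0052 summed. Between the sexes on CD it turned to −0.79 and −0.58 on log2 TPM and to −0.60 summed. The interaction was 2.09 and 1.70 on log2 TPM, against 1.73.

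On log2 TPM (pseudocounts 0.1 and 1), Ly6c1 changed sign in HFD against CD males (0.29 and 0.28), under E2 (−0.17 and −0.16) and in the interaction (−0.054 and −0.058), and Ly6e between the sexes on HFD (−0.033 and −0.032), under E2 (−0.35 and −0.34) and in the interaction (−0.14 and −0.14). Without the libraries with squamous markers, Ly6a changed sign between the sexes on HFD (0.29) and under E2 (0.11), and Ly6g in HFD against CD males (−0.0045). The call of Ly6c1 between the sexes on CD was lost on log2 TPM (−0.54 and −0.51). Within groups, r of Ly6c2 moved on TPM from 0.12 to 0.52 for macrophages and from 0.58 to 0.20 for B cells. The causes were not tested.

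With 1 library left out in turn, Ly6c2 ranged from 0.48 to 0.84 in HFD against CD males and from 0.42 to 0.81 between the sexes on CD, where leaving out CD female 3 gave an exact permutation p of 0.00649. Ly6c1 in HFD against CD males ranged from −0.094 to 0.042. Ly6a ranged from −0.071 to 0.30 (diet, females), −0.28 to 0.23 (diet, males), −0.45 to 0.0034 (sex, CD), −0.30 to 0.13 (sex, HFD), −0.52 to 0.17 (E2) and −0.13 to 0.38 (interaction). Ly6e ranged from −0.014 to 0.17 (diet, males) and −0.035 to 0.16 (interaction), and Ly6g from −0.084 to 0.40 and −0.23 to 0.25.

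Animals with the same replicate number correlated over 0.1 in 2 to 5 of 6 pairs. Their mean correlation was 0.025 to 0.21 over the pairwise comparisons, against −0.041 to −0.0052 for animals with other numbers. Whether the replicate numbers mark a pairing was not tested. With the replicate block Ly6c2 was 2.78, 2.61 and 1.30 (diet in females, sex on HFD, E2), and no call of a member changed. A minimum of 10 counts in every library removed Ly6c2. Counts of 1 to 13 limit Ly6c2 in the CD groups and in HFD males given vehicle, and E2-treated males had 6 to 55 reads.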
